A study of Mus musculus with 9 samples.

Results

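Embryoid bodies (EBs) kept with silver ion (Ag+) were compared with unexposed EBs across every gene the array annotation names. EBs are aggregates of mouse embryonic stem cells that begin to differentiate once the factors holding them in the pluripotent state are withdrawn. The comparison rests on 6 of the 9 arrays of the series: 3 arrays of C57BL/6 EBs that received Ag+ at 5.0 µg/ml on day 3 and were lysed 24 h later, and 3 arrays of C57BL/6 EBs of the same age that received no silver. The other 3 arrays carry RNA of EBs kept for 24 h with 5.0 µg/ml of citrate-coated silver nanoparticles (AgNP), and they entered the fit and are quoted where a gene is described further. All groups came from the same cell strain and differ by label in the exposure alone, and the labels call the replicates biological without saying which cultures or passages they came from, so a p-value measures the spread between these samples. Each array is a bulk measurement of whole EBs, in which fewer cells of a kind and less RNA per cell cannot be told apart. The study reported that this dose of Ag+ lowered the viability of EB cells. It also reported that cells fell off the outer shell of such EBs, while EB sizes were not affected. The part of this cell loss in the differences below was not tested.

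In such aggregates an outer epithelium of endoderm forms around an epiblast-like core, and the core goes on to make mesoderm and early neural cells. The outer endoderm is an absorptive tissue. It takes up proteins through large apical receptors, breaks them down in lysosomes and secretes carrier proteins, while mesoderm beneath it separates into paraxial cells, which form somites, and lateral cells, which form heart, vessels and extraembryonic tissue. Silver ion binds thiol groups and is known for inducing metallothioneins, small cysteine-rich metal-binding proteins, and for disturbing redox enzymes.

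The deposited values are log2 signals of 41345 probe sets, of which 25341 carry a gene name. They were summarised by RMA, which corrects background, brings the arrays to a common distribution and combines the probes of a set. Of the named probe sets, 23521 name 1 gene and 1820 name several, and no gene below was named from the second kind. Differences are means of Ag+ minus means of control on the log2 scale, so that 1 unit is a doubling, and they are set beside their standard error (SE, n = 3 arrays per group). A probe set was said to have risen or fallen at a p under 0.05 in limma, after Benjamini-Hochberg adjustment across all 25341 of them. Counts for groups of genes used 1 probe set for each of 22180 genes, the one with the highest mean signal. Any pair of arrays of 1 group correlated at 0.994 to 0.996, and an Ag+ array correlated with a control array at 0.991 to 0.994. Every gene named below as having risen or fallen kept an adjusted p under 0.05 whichever of the 9 arrays was left out. Exceptions have the arrays named in the sentence or the next one. Counts of members that rose or fell also include calls that were lost when an array was left out.

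Markers of the cell kinds that EBs can hold were read first. Of 9 pluripotency markers none lay in the dimmest of 4 equal bands of the named probe sets in controls, while 2 of 4 blood markers, the globins Hbb-y and Hba-x, and 2 of 5 fibroblast markers, Dcn and Lum, did. Summed log2 signals of the 8 visceral endoderm markers were 48.3 to 48.8 on the control arrays and 40.4 to 41.5 on the Ag+ arrays. Of the 8, 4 fell: Cubn (-3.35), Apob (-2.05), Ttr (-1.14) and Amn (-0.63). Hnf4a (-0.30), Apoa1 (-0.10), Afp (-0.07) and Sox7 (-0.02) did not pass. Of 5 parietal endoderm markers Sparc (-0.83), Col4a1 (-0.66) and Lama1 (-0.80) fell, while Pth1r (-0.25) and Thbd (0.18) did not pass. The call of Lama1 was lost without any 1 Ag+ array, among others. Summed parietal signals were 37.2 to 37.8 in controls and 34.9 to 35.5 with Ag+. The 4 definitive endoderm markers gave sums of 27.1 to 28.7 in controls and 28.9 to 29.2 with Ag+, with a median difference of 0.34, and none was called in limma while 3 passed an unadjusted p of 0.05. Of 5 primitive streak and mesoderm markers Tbx6 and Msgn1 were called higher and Eomes lower, and the calls of Msgn1 (0.62) and Eomes (-0.97) were lost without any 1 Ag+ array, among others. Among the 9 pluripotency markers limma made 0 calls and 1 passed an unadjusted p of 0.05, with sums of 55.3 to 59.9 in controls and 54.7 to 57.9 with Ag+. The part of these marker differences in the gene differences that follow was not tested.

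With Ag+, 206 probe sets rose and 373 fell, which is 2.28% of those tested (0.813% rose and 1.47% fell). On all 579 of them the 3 Ag+ arrays lay outside the range of the 3 control arrays, a separation seen in 16.5% of all named probe sets. Falls were thus the more frequent kind, at 64.4% of calls. That share depends on where the middle of the array is set, since centring the arrays on the brighter probe sets shifted the median difference from 0.00 to 0.04 and gave 269 rises and 292 falls, 52.0% of calls. Differences of 2-fold or more were 34 among the rises and 84 among the falls, and 97 of the rises and 182 of the falls were smaller than 1.5-fold. With each array left out in turn, 240 probe sets were called every time, of which 78 rose and 162 fell, and the total was 282 without control replicate 2, 305 without Ag+ replicate 2, 322 without Ag+ replicate 3 and 519 at most. At a fold change of 1.5 or more with an unadjusted p under 0.05, the thresholds used in the study, 145 rose and 279 fell.

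**Figure D1:**
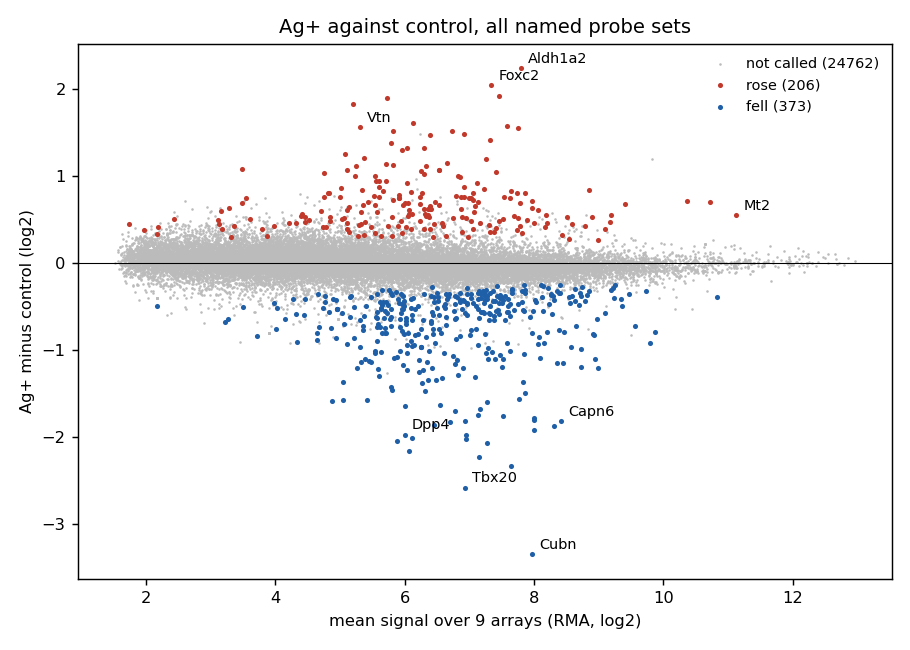
Log2 difference between the Ag+ and control means (vertical axis) against the mean log2 signal over 9 arrays (horizontal axis) for 25341 named probe sets, with rises in red and falls in blue at an adjusted p under 0.05. Of the 579 coloured points, few lie at signals under 3.72, the limit of the dimmest of 4 equal bands.

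Called probe sets were unevenly spread over the range of signal, divided into 4 bands with equal numbers of probe sets. In the dimmest band, with means under 3.72, 16 rose and 5 fell of 6336. The next band, up to 5.06, held 22 rises and 29 falls. Above it were 98 rises and 161 falls up to a mean of 6.83, and 70 rises and 178 falls in the brightest band. The median difference over all probe sets of a band also moved, from 0.03 in the dimmest to -0.05 in the brightest.

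The largest rise was that of Aldh1a2, the enzyme that makes retinoic acid from retinal in early mesoderm. Its log2 signal was 6.27, 6.57 and 7.11 on the control arrays and 8.52, 8.87 and 9.26 on the Ag+ arrays, a difference of 2.23 (SE 0.31, 4.70-fold, adjusted p = 0.00606 in limma). All Ag+ arrays thus stood above all controls by more than the spread of either group. Stra6, the cell-surface receptor that takes up retinol from its carrier, rose from 5.07, 5.27 and 5.23 to 6.35, 6.41 and 6.92, which is 2.59-fold. The forkhead factors Foxc2 and Foxc1, which act in paraxial mesoderm, rose by 2.04 and 1.54, and Tcf15, a basic helix-loop-helix factor of somite epithelium, rose by 1.89. Meox1, a homeobox factor of somites, had the widest spread of these: 3.86, 4.72 and 4.64 in controls against 5.58, 6.43 and 6.66. Its difference of 1.82 passed (adjusted p = 0.0238), but it no longer did without Ag+ replicate 2 or 3 or without any 1 of the controls, with values between 1.54 and 2.14 over the arrays left out.

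The other leading rises had more varied roles. Ppp1r1a encodes an inhibitor of protein phosphatase 1 that is switched on by cyclic AMP-dependent kinase. It was 6.64, 6.72 and 6.50 in controls and 8.32, 8.42 and 8.84 with Ag+, a 3.76-fold rise (adjusted p = 2.86e-04), and stood 1.30 above its level with AgNP (adjusted p = 0.00588 for that difference). Pkd1l1, a polycystin of the ciliated node, rose by 1.57 from controls that spread over 6.28 to 7.42. Fgf14, an intracellular member of the fibroblast growth factor family that regulates sodium channels, rose by 1.51 with an SE of 0.09. Pcdh19, a protocadherin on the X chromosome, rose by 1.48, and Dll1, a Notch ligand, by 1.51. The second probe set of Dll1 had a difference of 0.35 that was called, though not without any 1 of the Ag+ arrays. Vtn, Igfbp5, Smoc1 and Smoc2, all secreted proteins, complete the 15 largest rises and are given below.

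**Figure D2:**
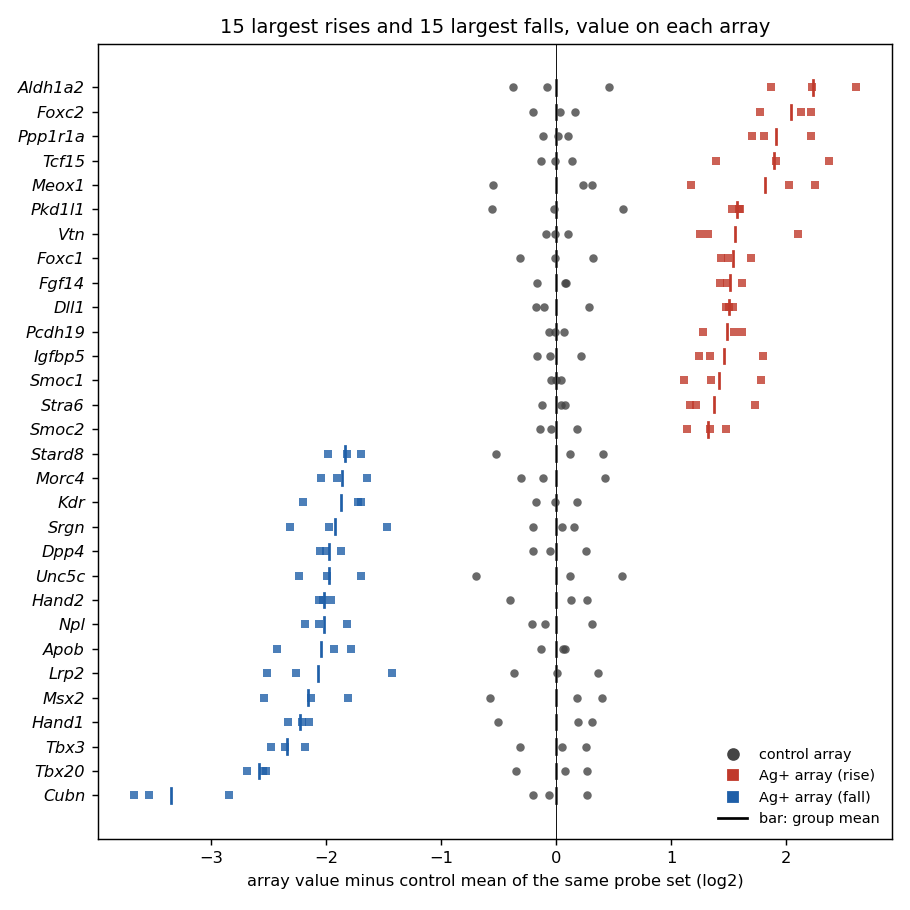
Value of each array minus the control mean of the same probe set (log2, horizontal axis) for the 15 largest rises and the 15 largest falls (vertical axis). Circles are the 3 control arrays, squares the 3 Ag+ arrays and bars the group means. In every gene drawn the Ag+ arrays lie on 1 side of the controls, from Cubn at -3.35 to Aldh1a2 at 2.23.

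The largest fall was that of Cubn, which encodes cubilin, a receptor for vitamin B12 with intrinsic factor and for many filtered proteins. It fell from 9.43, 9.10 and 8.96 to 6.32, 5.62 and 5.49, a difference of -3.35 (SE 0.23, 10.2-fold, adjusted p = 2.11e-04). Tbx20 and Tbx3, T-box factors of the heart field, fell by 2.59 and 2.34, and the basic helix-loop-helix factors Hand1 and Hand2 of lateral mesoderm fell by 2.23 and 2.02. Msx2, a homeobox factor that responds to bone morphogenetic protein (BMP), fell by 2.16, and Kdr, the main receptor for vascular endothelial growth factor, by 1.87. Srgn, the core protein of a granule proteoglycan, fell from 8.83, 8.73 and 8.48 to 7.21, 6.70 and 6.37. Morc4, a chromatin ATPase, and Stard8, a GTPase-activating protein with a lipid-binding domain, both lie on the X chromosome and fell by 1.87 and 1.83. Unc5c, a netrin receptor, fell by 1.98 from controls that spread over 7.24 to 8.51, and the call was lost without Ag+ replicate 1, Ag+ replicate 2 or control replicate 2, with values from -2.32 to -1.69. Apob, Lrp2, Npl and Dpp4 complete the 15 largest falls.

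Of 23 measured genes for uptake of protein at the apical surface 10 fell and 0 rose. Their median difference was -0.24, against -0.01 over the 22180 genes, of which 1.59% fell and 0.888% rose. The members of this list and of those below were chosen with earlier results of these data known, so their counts are descriptive. Calls were also more frequent at higher signals, in 4.09% of probe sets with means of 5.06 to 6.83 and 3.91% above. Cubn, Lrp2, Dab2, Amn and Folr1 fell whichever array was left out, and 5 members remained called without Ag+ replicate 2, the fewest for any array. Lrp2 encodes megalin, the partner of cubilin, and went from 8.36, 8.01 and 7.64 to 6.58, 5.74 and 5.49. Dab2, the adaptor that links these receptors to clathrin, had nearly no spread: 8.24, 8.17 and 8.10 in controls and 6.44, 6.38 and 6.40 with Ag+, a 3.39-fold fall (adjusted p = 1.28e-04). It was 1.56 lower with Ag+ than with AgNP (adjusted p = 3.88e-04). Amn, which brings cubilin to the surface, fell by 0.63, and Folr1, a folate receptor, fell by 0.95. General parts of the same machinery gave smaller values that did not pass, such as -0.23 for clathrin heavy chain (Cltc), -0.18 for the AP-2 subunit Ap2a2 and -0.15 for the early endosome GTPase Rab5a.

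Lysosomal genes showed 8 falls and 0 rises among 28, a median of -0.22, and differences below 0 in 27 of the 28. The proteases led. Ctsh, cathepsin H, an aminopeptidase, was 7.89, 7.49 and 7.35 in controls and 5.96, 5.83 and 5.49 with Ag+. Ctsc, which activates serine proteases of granules, fell by 1.61, and Lgmn, an asparaginyl endopeptidase, fell by 1.19. Ctsl fell by 0.65 from tight groups of 9.32, 9.13 and 9.15 against 8.55, 8.52 and 8.57. The glycosidases Man2b2 and Gaa fell by 0.66 and 0.46. Cathepsins B and D, the general lysosomal proteases, had differences of -0.31 and -0.28 and did not pass (adjusted p = 0.0664 for both).

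Peptidases and their inhibitors outside the lysosome moved in both directions, with 12 falls and 3 rises among 36 and a median of -0.09. Membrane peptidases were among the falls. Dpp4, which trims dipeptides from peptide hormones, went from 6.92, 6.61 and 6.46 to 4.79, 4.66 and 4.61, and it was 1.95 lower than with AgNP (adjusted p = 8.02e-04). Enpep, which cleaves angiotensin, fell by 0.52 and Prss12 by 1.17. Of secreted members, Spink1, a trypsin inhibitor, fell from 8.94 to 9.01 in controls to 7.80, 7.69 and 8.02 with Ag+. Pga5, a pepsinogen, fell by 1.38, Habp2, a plasma protease that binds hyaluronan, by 1.03, and Adamts3, a procollagen peptidase, by 0.74. Pappa, which frees insulin-like growth factors from their binding proteins, rose by 1.05, and Tll2, a relative of tolloid, by 0.75. Without Ag+ replicate 1, 9 of the 15 calls remained.

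Carrier proteins and their handlers were likewise divided, with 7 falls and 2 rises among 28. Apob, the scaffold protein of lipoproteins, fell from 6.68, 6.47 and 6.67 to 4.18, 4.82 and 4.68, and Ttr, the carrier of thyroid hormone and retinol, fell by 1.14. Amot, an angiostatin-binding scaffold of the Hippo pathway, fell by 0.80. It is not a carrier, but it was counted in this list and among the junction genes. Only Vtn and Stra6 rose. Without control replicate 2, 5 of the 9 calls remained.

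Enzymes that build or trim glycans gave 7 falls and 2 rises among 44, with a median of -0.08. Npl, which splits sialic acid, was 7.95, 7.54 and 7.43 in controls against 5.81, 5.45 and 5.58 with Ag+, a 4.06-fold fall (adjusted p = 5.14e-04). Gfpt2, which feeds the hexosamine pathway, fell by 1.16, and Has2, the enzyme that spins out hyaluronan, fell from 8.37, 8.46 and 8.39 to 7.25, 7.40 and 7.40. The Golgi enzymes Man1c1, B4galt6 and B4galnt2 fell by 0.95, 0.85 and 0.79. Engase, a cytosolic enzyme that releases N-glycans, rose by 0.62. Without Ag+ replicate 2, 7 of the 9 calls remained.

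**Figure D3:**
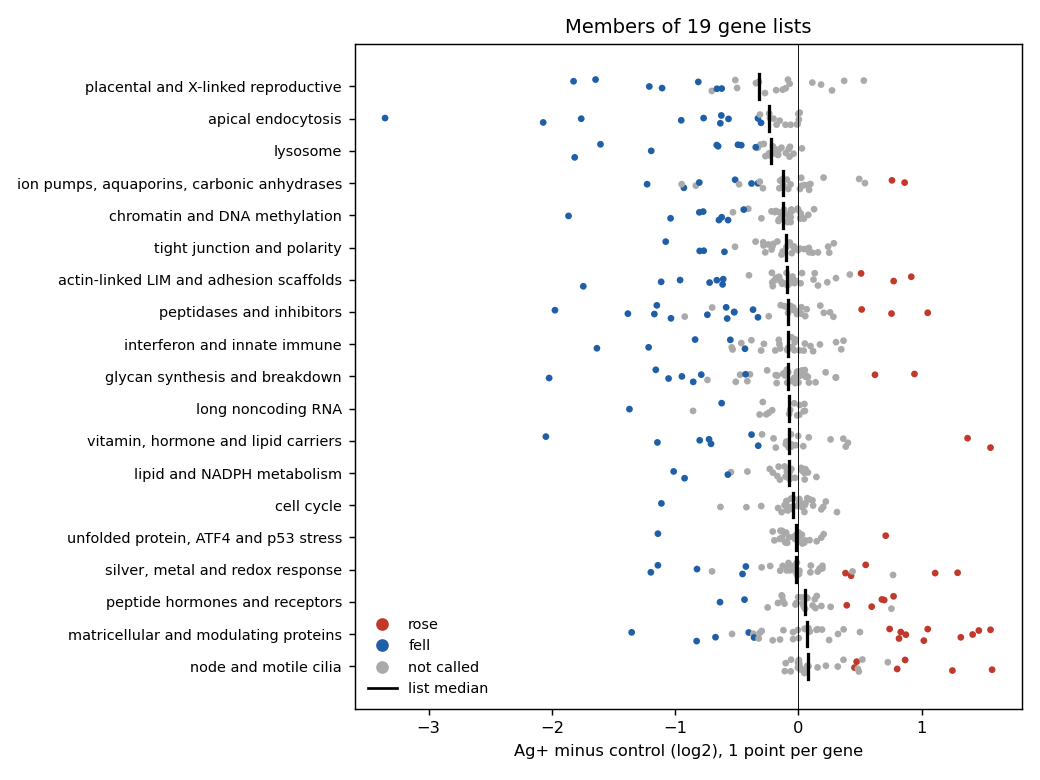
Log2 difference between Ag+ and control (horizontal axis) for each measured member of 19 gene lists (vertical axis), 1 point per gene, in red where it rose and blue where it fell, with the list median as a black bar. Medians run from -0.32 for the placental and X-linked list to 0.08 for node and motile cilia.

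Secreted proteins that shape the matrix or hold growth factors included more rises than falls, 10 against 5 of 38, with a median of 0.07. Vtn, vitronectin, an adhesive protein of plasma and matrix, rose from 4.68, 4.61 and 4.79 to 5.95, 6.01 and 6.79. Igfbp5, which binds insulin-like growth factors, rose by 1.46, and the calcium-binding proteins Smoc1 and Smoc2 of basement membranes rose by 1.41 and 1.32. Chrd, chordin, which holds BMPs away from their receptors, rose from 5.84, 5.77 and 5.84 to 6.79, 6.75 and 6.96 (2.02-fold, adjusted p = 2.11e-04). Cthrc1 rose by 0.87 with an SE of 0.06, and Postn, periostin, rose by 0.74 at a low level of 3.09 to 4.07. Against these, Bmper, another extracellular BMP-binding protein, fell by 1.35, and Sparc, an abundant matricellular protein, fell from 9.21, 9.28 and 9.21 to 8.41, 8.46 and 8.35. Of the 15 calls 10 remained without control replicate 2. The type IV collagen chains Col4a1 and Col4a2 fell by 0.66 and 0.87, and they were the only calls among 44 collagens.

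Among 18 Bmp and Gdf ligands 4 fell and 0 rose. Bmp4, which patterns lateral and ventral mesoderm, fell from 8.40, 9.08 and 9.27 to 6.96, 7.20 and 7.21, and Bmp5 and Bmp2 fell by 0.98 and 0.76. The intracellular feedback inhibitors Smad6 and Smad7 fell by 1.25 and 1.46, and Id1, a target of the pathway, by 1.03. Of 22 Fgf genes 1 rose and 2 fell, and of 19 Wnt genes 1 rose and 1 fell. Fgf3 and Fgf10 were the Fgf genes that fell, by 0.95 and 0.82, with a second Fgf10 probe set at -0.32 that did not pass, and Wnt3 fell by 0.84.

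Genes of the node and of motile cilia gave 6 rises and 0 falls among 31, with a median of 0.08. Besides Pkd1l1 these held Noto, the homeobox factor of the node and notochord, which rose from 4.76, 4.58 and 4.04 to 5.70, 5.59 and 5.84, and Capsl, a calcium-binding protein found in ciliated cells, which rose from 5.33, 5.06 and 5.29 to 6.08, 6.10 and 6.11. The remaining calls were the axonemal Dnah5 (0.45), Dnah11 (0.47) and Cfap126 (0.80), each of which was lost without Ag+ replicate 1, so that 3 of the 6 remained, and by other arrays in part. Foxj1, the factor that switches on motile cilia genes, had a difference of 0.72 and did not pass (adjusted p = 0.0680). By symbol, 3 of 32 Cfap genes rose, among them Cfap44 by 0.41, and 2 of 11 axonemal dynein heavy chains. These families were formed after the values had been seen.

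Cytoskeletal scaffolds moved in both directions, with 7 falls and 3 rises among 39 members that link actin to adhesion sites. Pdlim3, an adaptor at actin filament ends, fell from 7.82, 8.31 and 8.10 to 6.45, 6.17 and 6.38 (3.35-fold). Parvb, which ties integrins to actin, fell by 1.11, Ahnak by 0.96, Cobll1 by 0.72 and Csrp2 by 0.66. Cobl, an actin nucleator related to Cobll1, rose from 5.68, 5.59 and 5.63 to 6.40, 6.34 and 6.48, so that Cobl and Cobll1 went opposite ways, and Limch1 rose by 0.91. Among 24 unconventional myosins 4 fell, with Myo7a at -0.60 and Myo5b at -0.58. Integrins themselves gave 0 calls among 23 in limma, with 5 at an unadjusted p under 0.05.

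At cell junctions 4 of 33 genes fell and 0 rose. Pard6b, a polarity protein of the Par complex, fell from 7.23, 7.30 and 7.43 to 6.30, 6.20 and 6.24, and Cgnl1, which ties tight junctions to actin, fell by 0.77. The claudins, which form the seal of tight junctions, gave 0 calls among 23 with 4 at an unadjusted p under 0.05, and keratins 0 among 49 with 8. Of 23 cadherins 2 fell, Cdh11 by 1.49 and Cdh6 by 1.35.

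Peptide hormones and G protein-coupled receptors gave 5 rises and 2 falls among 29, with a median of 0.05, but all 7 calls were lost without Ag+ replicate 2. Trh, the precursor of thyrotropin-releasing hormone, was 10.6, 10.4 and 10.1 in controls and 11.1 on each Ag+ array. Aplnr, the apelin receptor of early mesoderm, was 9.29, 9.04 and 8.84 against 9.75, 9.74 and 9.71, so that in both genes the Ag+ arrays lay close together above more widely spread controls. Cxcr4, a chemokine receptor, was called lower with a difference of -0.44. Among the 17 long noncoding RNAs of the list, 2 were called lower and 0 higher. These were Fendrr and Igf2os (-0.62), and both calls were lost without Ag+ replicate 1. Crnde, a noncoding RNA outside this list, was called higher and is given below with the array that its call depends on.

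Membrane transport was touched in few places. Aqp8, a water and peroxide channel, fell from 6.08, 5.93 and 5.83 to 4.87, 4.82 and 4.47, and Atp1b1, a subunit of the sodium pump, fell by 0.93. Both were lower with Ag+ than with AgNP, by 1.34 and 0.82 (adjusted p = 0.00349 and 0.0195). Clic1 fell by 0.38, while Rhbg, an ammonium transporter, and Car3, a carbonic anhydrase, rose by 0.86 and 0.76, although a second probe set of Car3 had a difference of 0.14 that did not pass. In all, 6 of 33 pumps, aquaporins and carbonic anhydrases fell and 2 rose, and 5 of the 8 calls remained without Ag+ replicate 2. In the far larger Slc family, 6 of 361 fell and 2 rose, close to the share over all genes. Potassium channels rose in 3 of 90 cases, led by Kcnk16 with 1.11, and fell in 1. Of these calls, 1 rise and 0 falls were kept whichever array was left out.

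Among 38 regulators of chromatin 8 fell and 0 rose, with a median of -0.13. Besides Morc4 these included Pcgf5, a subunit of a variant Polycomb complex, which went from 6.69, 6.58 and 6.33 to 5.51, 5.46 and 5.52. Pwwp2b, a reader of methylated histone, fell by 0.65, and Kdm6b, which removes methyl groups from histone H3, fell by 0.44, although its second probe set had a difference of -0.04. Without Ag+ replicate 3, 4 of the 8 calls remained. The core members Eed, Kmt2a and Dnmt3b had differences of -0.18, -0.16 and -0.53 that did not pass.

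Of 23 genes known from the placenta or from X-linked clusters expressed in reproductive tissue, 7 fell and 0 rose, with the lowest median of the lists at -0.32. Capn6, a protease-like protein of the placenta that stabilises microtubules, fell from 9.18, 9.52 and 9.60 to 7.59, 7.48 and 7.76. Nxf7, an X-linked relative of the mRNA export factors, fell from 6.70, 6.63 and 6.53 to 5.09, 5.23 and 4.61, and was 1.45 lower with Ag+ than with AgNP (adjusted p = 0.00335). Spin2c fell by 1.11, and Plet1, a surface protein of trophoblast progenitors, by 0.81. Of 4 measured trophoblast markers limma called 0, with a median difference of 0.15. Their differences ran from -0.10 for Ascl2 to 0.53 for Cdx2. Without Ag+ replicate 2, 4 of the 7 calls remained.

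Several of these genes share a chromosome. On the X chromosome 29 of 899 measured genes fell and 3 rose, 3.23% and 0.334%, against 1.59% and 0.888% over all genes, and the median difference over all X-linked genes was -0.01. The falls spanned unrelated functions: besides Morc4, Stard8, Capn6, Nxf7 and Amot they held S100g, an intestinal calcium-binding protein, at -1.04, L1cam, a neural adhesion molecule, at -1.03, the kinase Rps6ka6 at -0.92, the zinc finger factor Zfp711 at -0.88 and the forkhead factor Foxo4 at -0.65. Of the 29, 14 fell whichever array was left out. The 3 rises were Pcdh19, Ripply1, a co-repressor in somite formation, at 0.39, and Tmem255a at 0.47, which was lost without Ag+ replicate 2 or control replicate 1 or 2. Chromosome 18 had a like share, with 17 of 518 genes lower, and chromosome 7 held the second smallest share of rises, 8 of 1948.

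**Figure D4:**
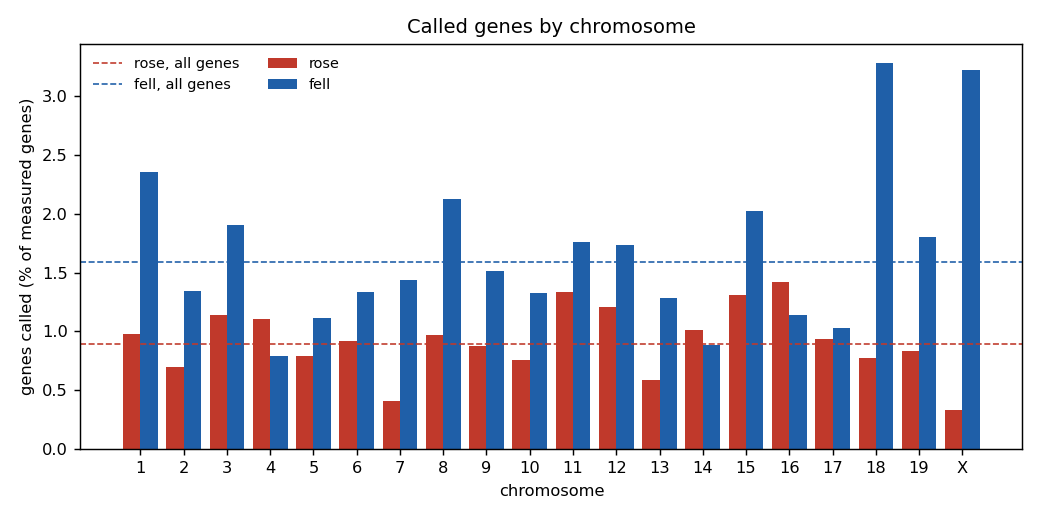
Percent of measured genes on each chromosome that rose (red bars) or fell (blue bars) with Ag+, with dashed lines at the percentages over all 22180 genes, 0.888 and 1.59. The bars of falls on chromosomes 18 and X, at 3.28 and 3.23, stand highest.

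Called genes also lay side by side. With the 21994 measured genes placed in RefSeq order, 33 pairs of neighbours were both called. In 31 of them both went the same way, 8 upward and 23 downward. Runs of called genes count more than once: Dsg2, Ttr, B4galt6 and Trappc8 form a run, as do Irx3, Crnde and Irx5. Whether the pairs exceed those of a random order was not tested. Some agreement in direction follows from falls being 64.4% of calls. Examples of pairs were Col4a1 with Col4a2, Ttr with B4galt6, Lgmn with Rin3 (-0.64), Tmem88 (-1.11) with Kdm6b, Myo7a with Capn5 (-0.52) and Ppic (-1.10) with Prdm6 (-1.68). The pairs that went apart were Grasp (0.48) with Nr4a1 (-0.36), and Prkaa2 (-0.92) with Plpp3 (0.37). In Grasp the call was lost without any 1 Ag+ array and others, in Nr4a1 without Ag+ replicate 1 or 2 or control replicate 1 or 3, and in Plpp3 without every array but AgNP replicate 1. Transcripts that overlap or start back to back cannot be told apart where probes do not separate the strands.

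In 2 clusters of forkhead genes close neighbours went opposite ways. On chromosome 8, Foxf1, a factor of lateral and visceral mesoderm, was 8.33 to 9.30 in controls and 6.75, 7.02 and 7.43 with Ag+, a fall of 1.81. Its call was lost without Ag+ replicate 2 or control replicate 2, with values from -2.08 to -1.60, and that of its divergent noncoding neighbour Fendrr (-1.37) was lost without all arrays except AgNP replicate 3 and control replicate 1. The next gene, Mthfsd, was 6.86, 6.92 and 7.03 against 7.01, 7.10 and 7.22. Foxc2 followed with 6.52, 6.40 and 6.16 against 8.14, 8.49 and 8.58, a 4.11-fold rise (adjusted p = 4.48e-04), and beyond it Foxl1 had a difference of 0.05. On chromosome 13, Foxq1 fell from 7.06, 7.25 and 6.83 to 5.57, 5.72 and 5.44, Foxf2 had a difference of -0.28 that did not pass, and Foxc1 rose from 7.31, 6.99 and 6.68 to 8.43, 8.69 and 8.49. The second probe set of Foxq1 had a difference of -0.19. The genes that flank this cluster, such as Gmds (-0.05), did not pass.

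**Figure D5:**
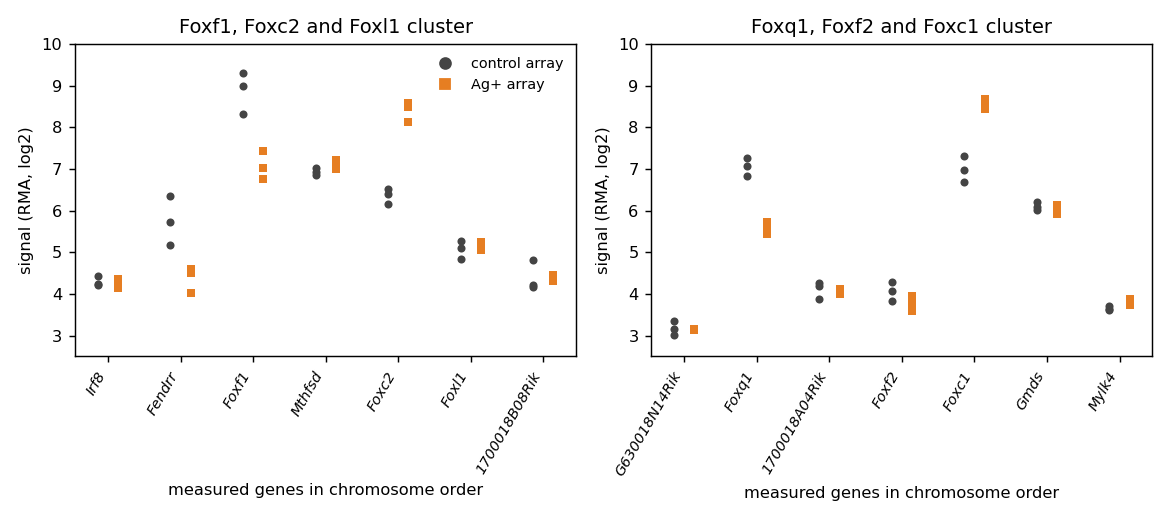
Log2 signal (vertical axis) on the 3 control arrays (dark circles) and the 3 Ag+ arrays (orange squares) for measured genes in chromosome order (horizontal axis) around Foxc2 and Foxc1. Foxf1 and Foxq1 lie lower with Ag+, Foxc2 and Foxc1 higher, and the genes between them overlap or lie close.

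Families of transcription factors differed in how many members were called. Forkhead genes gave 4 rises and 5 falls among 45, with Foxb1 and Foxd4 the other rises at 1.15 and 1.21. All 4 rises and 2 of the falls kept their calls whichever array was left out. T-box genes gave 1 rise and 3 falls among 16, and the rise was Tbx6, a factor of presomitic mesoderm, from 6.31, 6.32 and 6.25 to 7.26, 7.37 and 7.23. Of 36 Hox genes only Hoxb1 and Hoxb3 rose, by 1.04 and 0.70. Mnx1, a factor of motor neurons and notochord, rose by 1.03. The Kruppel-like family gave 4 falls among 17, with Klf6 at -0.73 and Klf10 at -0.53, and 2 of the 4 were kept throughout. Of 6 Iroquois genes 3 were called higher, Irx1 (0.62), Irx3 (0.74) and Irx5 (0.55), and the noncoding RNA Crnde (0.55), which lies between Irx3 and Irx5, was called as well. The second, dimmer probe set of Irx3 had a difference of -0.01. None of these kept the call throughout. Irx1 lost it without Ag+ replicate 2 or 3, control replicate 1 or 2 or any AgNP array, Irx3 without Ag+ replicate 2 or 3, Crnde without control replicate 2, and Irx5 without Ag+ replicate 2 or 3 or control replicate 2 or 3. The 19 Sox genes gave 0 calls, with 2 at an unadjusted p under 0.05. The 370 Zfp genes gave 1 rise and 4 falls, of which 0 rises and 1 fall were kept whichever array was left out.

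Basic cellular machinery gave no calls. Limma called 0 of 66 ribosomal protein genes, 0 of 71 mitochondrial ribosomal protein genes, 0 of 49 proteasome subunits, 0 of 42 subunits of respiratory complex I, 0 of 51 translation initiation factors and 0 of 36 histone genes. At an unadjusted p under 0.05 these groups held 3, 5, 1, 2, 3 and 3 genes, all below the 14.2% of genes that passed it overall. Their medians ran from -0.02 to 0.09. Of 33 cell cycle genes 1 fell, Myc, from 7.68, 8.27 and 8.12 to 6.97, 6.89 and 6.88. Of 30 genes of the unfolded protein, ATF4 and p53 responses, Trp53i11 rose by 0.71 and Dram1, a lysosomal membrane protein, fell by 1.14.

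Among 38 genes linked to metals and redox, 5 rose and 5 fell, and 6 of the 10 calls remained without control replicate 2. Mt2, a metallothionein, was 10.6, 10.7 and 10.6 in controls and 11.2 on each Ag+ array, a 1.46-fold rise (difference 0.55, SE 0.06, adjusted p = 0.00178). With AgNP its mean was 11.5, and Ag+ lay 0.35 below that (adjusted p = 0.0443). Mt1, beside it on the chromosome, had 8.49, 8.42 and 8.44 against 8.58, 8.59 and 8.75 and did not pass (adjusted p = 0.285). The promoters of both are shown because metal-regulated transcription acts there through metal response elements, whose core, TGCACNC or TGCGCNC, is in capitals on either strand. They are the RefSeq sequences of GRCm38.p6 from 250 bases before to 50 after the annotated start, on the plus strand of chromosome 8.

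Mt2, chr8:94172368-94172667: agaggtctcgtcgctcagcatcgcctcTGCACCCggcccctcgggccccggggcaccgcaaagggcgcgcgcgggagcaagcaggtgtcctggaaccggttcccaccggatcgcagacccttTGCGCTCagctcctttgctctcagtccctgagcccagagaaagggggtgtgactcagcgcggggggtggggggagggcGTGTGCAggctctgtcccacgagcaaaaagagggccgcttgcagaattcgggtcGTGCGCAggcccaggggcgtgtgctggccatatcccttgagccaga
Mt1, chr8:94178839-94179138: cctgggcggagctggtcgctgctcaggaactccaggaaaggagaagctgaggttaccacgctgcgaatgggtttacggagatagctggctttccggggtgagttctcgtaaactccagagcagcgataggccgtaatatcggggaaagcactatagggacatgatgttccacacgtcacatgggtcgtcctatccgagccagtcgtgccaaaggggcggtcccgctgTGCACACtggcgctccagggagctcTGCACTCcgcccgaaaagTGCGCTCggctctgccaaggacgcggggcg

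The core was searched on both strands, with overlaps allowed, and was found 4 times for Mt2 and 3 times for Mt1. Relative to the annotated start the cores lay from -223 to 4 for Mt2 and from -23 to 20 for Mt1. Neither sequence held the TATA box TATAAA. Whether the annotated starts are those used was not tested, so the counts hold for these windows alone. The core is short and common: 29.7% of 16918 promoters of measured genes held at least 1. At least 4 were found in 107 promoters (0.632%) and at least 3 in 2.51%. Among promoters of genes that rose 40.1% of 142 held the core, of genes that fell 34.3% of 268, and of genes with a mean signal of at least 5, 37.7%.

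The heat shock genes and Hmox1 did not pass. Hspa1a, an inducible heat shock protein, was 5.67, 5.60 and 5.49 in controls and 6.49, 6.34 and 6.23 with Ag+, so that the arrays separated, but the difference of 0.77 did not pass (adjusted p = 0.0829) beside an AgNP mean of 8.38. Hspa1b (0.44) and Hmox1 (-0.13), which breaks down haem, did not pass. Ag+ lay below AgNP by 2.03 for Hspa1a, 2.46 for Hspa1b and 0.97 for Hmox1 (adjusted p = 0.00257, 0.00188 and 0.0451), and over all named probe sets 0.509% passed in that contrast.

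Selenium and glutathione genes were called in both directions. Gpx1, the main cytosolic glutathione peroxidase, fell from 9.31, 9.37 and 9.40 to 8.56, 8.48 and 8.57 (adjusted p = 2.11e-04). Selenow, a small selenoprotein, fell from 8.27, 8.24 and 7.96 to 6.85, 6.90 and 7.13, and Glrx, glutaredoxin, which reduces glutathione-bound proteins, fell by 1.14. In the other direction Selenop, the secreted carrier of selenium, rose from 5.14, 5.47 and 5.68 to 6.44, 6.73 and 6.98, and Gstm3 rose by 1.11. Of 21 glutathione transferases 3 rose and 0 fell, and 1 of the 3 kept its call whichever array was left out. In lipid and NADPH metabolism 3 of 30 fell, among them Me1, malic enzyme, from 8.23, 7.92 and 7.71 to 7.08, 6.83 and 6.91, and Prkaa2, a catalytic subunit of AMP-activated kinase.

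In innate immunity and interferon signalling 5 of 33 fell and 0 rose, and 3 of the 5 remained without Ag+ replicate 2. Zc3hav1, an antiviral protein that binds CpG-rich RNA, fell from 7.63, 7.68 and 7.34 to 6.44, 6.29 and 6.28. Cd59a, which protects cells from complement, fell by 1.63, and Lifr, the receptor for leukemia inhibitory factor, by 0.55. Olfactory receptor genes, which lie almost wholly at low signals, gave 8 rises and 2 falls among 1105, and none of the 10 kept its call whichever array was left out.

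Of 472 measured microRNA loci 1 rose and 3 fell. Such probe sets can read the hairpin or the primary transcript and do not measure the mature RNA. The mature sequences of the loci called are shown, from RefSeq (GRCm38.p6), with the seed, bases 2 to 8, in capitals, since the seed decides which messengers a microRNA can pair with.

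mmu-miR-3080-5p: uGAAGCGCcuguucuuggau
mmu-miR-3080-3p: uCCUCGGGcaaagcgcuugaca
mmu-miR-3088-5p: gCUAUGCAguuguucaugagcu
mmu-miR-3088-3p: uUCAUGAGcagcugcaaaggugu
mmu-miR-425-5p: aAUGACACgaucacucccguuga
mmu-miR-425-3p: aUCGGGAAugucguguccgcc

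No seed is shared between these 6. Mir3080 fell from 6.16, 5.93 and 5.86 to 5.31, 5.18 and 5.24, and Mir3088 fell from 4.57, 4.56 and 4.60 to 4.20, 4.13 and 4.15. Each lies within the span of another gene, and those hosts did not pass: Tcf20 around Mir3080 had a difference of -0.07 and Ak8 around Mir3088 one of 0.09. Mir425 rose by 0.46, within Dalrd3 (0.26, not passed), and its call was lost without Ag+ replicate 2 or control replicate 2. The remaining fall was Mir669k, which lies in Sfmbt2 and is read by 9 probe sets, with differences from -1.10 to -0.78 and 7 of 9 called. All 7 calls were lost without control replicate 2 and without Ag+ replicate 2 or 3. Its sequence is not printed. Some of those probe sets hold identical values. The loci of pluripotent cells did not pass, with -1.27 for Mir290a (adjusted p = 0.112) and -0.18 to -0.47 for Mir302a, Mir302b, Mir302c and Mir302d.

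Promoters of the called genes were read for common motifs, as a description. The GATA motif AGATAA, on either strand, was in 9.98% of all promoters, in 5.63% of those of genes with a mean signal of at least 5, in 6.34% of those that rose and in 8.96% of those that fell. The TATA box TATAAA was in 11.3% of promoters that rose and 9.33% of those that fell, against 6.67% at a mean of at least 5 and 12.9% overall. The core of the antioxidant response element, TGANNNNGC, was in 36.6% and 40.7%, against 41.8% overall. Promoters held a median of 17.5 CpG in genes that rose and 18 in genes that fell, beside 13 over all genes and 21 at a mean of at least 5.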

How the data were processed

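RNA of whole EBs was hybridised to Affymetrix Mouse Gene 2.0 ST arrays. The authors made the log2 values with RMA in Affymetrix Expression Console 1.3, and the deposited values were used without further normalization or filter. Conditions came from the sample labels. Limma 3.58.1 in R 4.3.3 fitted 1 linear model with 3 group means to all 9 arrays, tested Ag+ minus control two-sided and adjusted over the 25341 named probe sets. On simulated Ag+ against control data of 25341 probe sets it recovered 48 of 67 true differences of 1.5-fold, 59 of 67 of 2-fold and all 66 of 4-fold, and 8 unchanged probe sets were called. The number of arrays limits the precision.

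Gene lists (19, with 670 entries) and 54 families formed by symbol were counted without a set test. The members and lists were chosen with earlier results of these data known. Genes named are the 15 largest rises and 15 largest falls among called single-gene probe sets whose arrays separate the groups, called members and up to 4 members of smallest p of each list or family described, called microRNA loci, and metallothionein and heat shock genes. Genes given for chromosomes, neighbouring pairs and families with few calls, and general parts of a pathway that did not pass, were chosen after their values were seen. Alternatives were other filters, arrays, a replicate block, trend and weights, centring and a Welch test, which the study names. RefSeq tables of GRCm38.p6 gave current symbols, gene order and sequences, matching 23328 of 23521 single-gene probe sets.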

Additional observations from a re-analysis of the deposited data

Results flagged for a closer look

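The 16004 probe sets without a gene name entered no comparison above. In a limma fit of all 41345 probe sets, 38 of the unnamed ones were called with Ag+ against control at an adjusted p under 0.05, of which 16 were higher and 22 lower. They are listed because they differ between Ag+ and control arrays outside the named genes, and they were given no identity here.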

How the results depend on the processing

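The fit reported above called 579 probe sets. The count was 767 with trend and robust options, 739 with array weights, 623 with a replicate block and 561 with centring. It was 576 over single-gene probe sets, 574 over 1 probe set per gene and 837 at a mean of at least 5, where 12906 were tested. All of these lay within 1.5 times of 579. Over all probe sets it was 345, of which 307 were shared with those 579. With only the Ag+ and control arrays it was 321 (312 shared), and by treat against a fold change of 1.5 it was 37. A Welch test called 0 after adjustment, with 1788 at an unadjusted p under 0.05. Leaving out an array gave 282 to 519. At a fold change of 1.5 and an unadjusted p under 0.05 the count was 424 in the fit reported above, 334 by the Welch test, 349 at a mean of at least 5, 407 to 429 under the other alternatives and 389 to 489 with an array left out. Of 158 genes followed through these settings none changed direction. Of them, 154 were called in the fit reported above, where the arrays of every call separate, so leaving out an array could not reverse these. All 154 of these calls were lost by the Welch test, and 127 by treat. Over all probe sets 41 lost theirs, and with only the Ag+ and control arrays 40 did. Deviations of Ag+ and control arrays of the same replicate number correlated at 0.174, -0.004 and 0.025, and those of different numbers at -0.187 to 0.155. Correlations taken over many probe sets cannot settle whether the numbers pair the samples, since a trend shared by some genes can be hidden. With the replicate block 494 of the 579 calls were kept and 10 of the genes followed lost theirs. Signals near background limit the dim genes, and 3 arrays per group limit all.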

Other observations

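Of 550 genes with a called single-gene probe set, 31 had more than 1 such probe set. In 20 of the 31 every probe set lay on the same side of 0, and in 2, Dll1 and Tnks, every one was called. The differences of Tnks, a poly-ADP-ribosyltransferase that acts at telomeres, were -0.56 and -0.31, and both calls, like that of the dimmer Dll1 probe set, were lost without Ag+ replicate 2, among other arrays. Fam174b had 0.77 on one probe set and -0.01 on the other, and its call was lost when any 1 array was left out. Syne1, a nuclear envelope spectrin read by 59 probe sets, had 1 called, at 0.31, with differences from -0.04 to 0.71 over all of them, and that call was lost without any one array other than control replicate 3. These genes were picked after their values were seen.

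Some genes outside the lists also moved by more than 2-fold in the fit of all arrays and kept their calls whichever array was left out, and were likewise picked after their values were seen. Stk32a, a kinase, fell from 5.77, 5.82 and 5.66 to 4.08, 4.18 and 4.21. Nrg1, a ligand of ErbB receptors, fell from 6.83, 7.01 and 6.74 to 5.72, 5.62 and 5.61, and was 1.12 lower with Ag+ than with AgNP (adjusted p = 0.00151 in limma). Klb, the co-receptor for endocrine fibroblast growth factors, fell by 1.58, Pmp22, a myelin protein also found in other tissues, by 1.71, and S100a1, a calcium-binding protein, from 6.28, 6.29 and 6.28 to 5.32, 5.15 and 5.32. Adcy8, a calcium-stimulated adenylyl cyclase, rose by 1.06.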
